A study of Mus musculus with 6 samples.

Results

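Uridine phosphorylase, encoded by Upp1, and 9 other genes of pyrimidine salvage and synthesis were followed in type-2 innate lymphoid cells (ILC2s), 10 of the 53278 genes in the table. The members were Upp1, Uck1, Uck2, Cda, Tk1, Dck, Tymp, Umps, Cad and Dhodh, each found by its gene symbol. They were chosen by the normalized counts of the DTA-1 and isotype control libraries compared here, that is with this contrast already known, so their values are given as a description, with no test. Their standard errors and intervals do not allow for that choice, so no interval is read as a test. Of the 10, 9 passed the filter on low counts and Cda did not.

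RNA was sequenced from ILC2s sorted from the visceral adipose tissue of C57BL/6 mice aged 8 weeks, all of which had received 3 intraperitoneal injections of 1 µg IL-33, a cytokine that activates these cells. All cells were cultured with IL-2 and IL-7, each at 10 ng/mL, for 48 h as the sample labels give it. The culture time is in doubt, since a shorter one is given elsewhere for this experiment. One group of 3 libraries received DTA-1 at 5 µg/mL, an agonist antibody to the TNF receptor family member GITR, and the other group of 3 libraries received the isotype control, as the treatment label gives it, although the headers of their columns name PBS. No group without IL-33 and none without antibody was sequenced in the samples used here, so the comparison is between DTA-1 and its control on activated cells. The labels do not say whether the libraries came from separate mice or cultures, so errors and p-values measure the spread between these libraries, which may be technical.

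Pyrimidine nucleotides reach the pool by de novo synthesis or by salvage. In de novo synthesis, the CAD protein builds the first intermediates from glutamine and aspartate, DHODH oxidises dihydroorotate to orotate at the mitochondrial inner membrane, and UMPS turns orotate into UMP. In salvage, kinases phosphorylate nucleosides taken up by the cell: UCK1 and UCK2 act on uridine and cytidine, TK1 on thymidine and DCK on deoxycytidine. Uridine phosphorylase cleaves uridine reversibly into uracil and ribose-1-phosphate, CDA deaminates cytidine to uridine, and thymidine phosphorylase, encoded by Tymp, cleaves thymidine.

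Upp1 had a higher normalized count in DTA-1 than in isotype control, by 2.08-fold on average, and the rise was carried by DTA-1 replicates 2 and 3. Cad and Umps, the first and the last enzymes of de novo synthesis, were 1.35-fold and 1.16-fold higher, with every DTA-1 library above every isotype control library. Dhodh, between them in the pathway, and the salvage kinase genes Uck1, Uck2, Tk1 and Dck overlapped between the groups. Tymp was low and Cda was at or near 0.

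The library labelled DTA-1 replicate 1 stood apart from its group. Measured by the chi-square of the counts per degree of freedom, its distance was 10.2 to 12 to any isotype control library but 29.5 and 30.8 to DTA-1 replicates 2 and 3, whose distance to each other was 12.1. The isotype control libraries were 12.1 to 18.4 from each other, so DTA-1 replicate 1 was at least as near to them as they were to each other. Results are therefore also given without it. Since it was left out after its counts were seen, errors, intervals and p-values without it do not allow for that choice. Total counts were 30569351 to 35131329 per library. At that depth 3 counts, the limit that a count of 0 allows, equal 0.0854 to 0.0981 CPM, which covers counting error only. Normalized counts are CPM, counts scaled to a common library total, after TMM scaling, and fold changes are DTA-1 over isotype control from edgeR's quasi-likelihood fit.

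The promoters of Upp1, Cad and Umps are shown because all DTA-1 libraries lay above isotype control for these genes and, unlike Tymp, none of them was low. Each window holds 250 bases before and 50 bases after a transcription start of RefSeq (GRCm38.p6), written 5′ to 3′ along the gene, and capitals mark matches to the motifs searched. Upp1 has 3 such windows, at the starts 9118008, 9118103 and 9118507 on chromosome 11. The windows of the last 2 Upp1 starts, and those of Cad and Umps, are chr11:9117853-9118152 (+ strand), chr11:9118257-9118556 (+ strand), chr5:31054530-31054829 (+ strand) and chr16:33966989-33967288 (− strand).
Upp1, start 9118103: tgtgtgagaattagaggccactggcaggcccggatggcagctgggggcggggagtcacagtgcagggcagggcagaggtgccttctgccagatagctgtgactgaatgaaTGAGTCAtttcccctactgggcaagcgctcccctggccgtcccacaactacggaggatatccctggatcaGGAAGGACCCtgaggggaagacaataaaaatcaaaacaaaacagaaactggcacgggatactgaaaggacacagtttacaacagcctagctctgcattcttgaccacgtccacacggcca
Upp1, start 9118507: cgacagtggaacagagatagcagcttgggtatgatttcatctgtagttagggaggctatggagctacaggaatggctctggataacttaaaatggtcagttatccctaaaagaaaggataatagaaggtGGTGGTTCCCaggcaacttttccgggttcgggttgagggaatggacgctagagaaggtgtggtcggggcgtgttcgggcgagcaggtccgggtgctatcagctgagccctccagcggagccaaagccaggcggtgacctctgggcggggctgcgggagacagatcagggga
Cad: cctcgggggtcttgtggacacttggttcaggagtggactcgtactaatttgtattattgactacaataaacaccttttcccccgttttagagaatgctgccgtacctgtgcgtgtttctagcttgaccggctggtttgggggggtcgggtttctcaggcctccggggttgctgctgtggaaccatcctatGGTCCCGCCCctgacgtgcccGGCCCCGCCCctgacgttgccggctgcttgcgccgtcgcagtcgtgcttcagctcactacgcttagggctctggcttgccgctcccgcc
Umps: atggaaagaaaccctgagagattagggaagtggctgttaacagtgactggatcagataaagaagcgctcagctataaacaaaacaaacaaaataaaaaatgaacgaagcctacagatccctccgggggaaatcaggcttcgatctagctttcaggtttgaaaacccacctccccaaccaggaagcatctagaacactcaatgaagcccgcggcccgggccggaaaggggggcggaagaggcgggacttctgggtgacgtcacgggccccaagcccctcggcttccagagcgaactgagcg

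Both strands of these windows were searched for 4 motifs: CACGTG (E-box), TTTNNCGC (E2F-type), a κB-type motif (GGG, then 5 bases of any kind, then CC) and TGANTCA (AP-1-type). Promoters were given for 9 of the 10 members, in 12 windows of 300 bases, with none for Dhodh. TGANTCA was found in Upp1 alone among the members, as TGAGTCA, in 2 of its windows that overlap and share the same site. The site lay 45 to 39 bases before the start at 9118008, which is 140 to 134 bases before the start at 9118103, and 7.81% of all 32851 promoters held the motif. The κB-type motif was in 10 of the 12 windows and in 7 of the 9 members, Upp1 and Cad included, against 50.8% of all promoters. Umps and Tk1 had no match to any motif, and CACGTG and TTTNNCGC were in no member's window, against 7.15% and 5.17% of all promoters. The GC content was 55% and 55.3% in the 2 Upp1 windows shown, 59.7% in Cad and 53% in Umps, against a median of 52.7% over all promoters. A match describes letters only, and counts per gene do not show which Upp1 start was used.

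Upp1 lies at chr11:9118103-9136170 on the + strand. Its expected counts were 3155, 2704 and 2881 in isotype control replicates 1 to 3, against 2841, 7018 and 6323 in DTA-1 replicates 1 to 3. As normalized counts these were 89.2, 77.1 and 81.7 CPM in isotype control and 91.9, 225 and 198 CPM in DTA-1. DTA-1 replicate 1 lay just above the highest isotype control library, and the other DTA-1 libraries lay far above it, so the groups did not overlap. The mean was 82.6 ± 6.1 CPM in isotype control and 172 ± 70.4 CPM in DTA-1 (SD, n = 3), with a log2 fold change of 1.05 with a standard error of 0.31 and a 95% interval of 0.32 to 1.79.

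Without DTA-1 replicate 1 the DTA-1 mean for Upp1 was 212 CPM, 2.56-fold above isotype control. The log2 fold change was then 1.36, with a standard error of 0.08 and an interval of 1.17 to 1.54. That error and interval do not allow for the library having been left out after its counts were seen. Leaving out DTA-1 replicate 2 instead gave 0.82, the lowest value of the 13 alternatives. Among all genes tested, Upp1 ranked 182 of 14361 by log2 fold change with all 6 libraries, which is the upper 1.27%. Without DTA-1 replicate 1 it ranked 191 of 14911, the upper 1.28%.

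**Figure D1:**
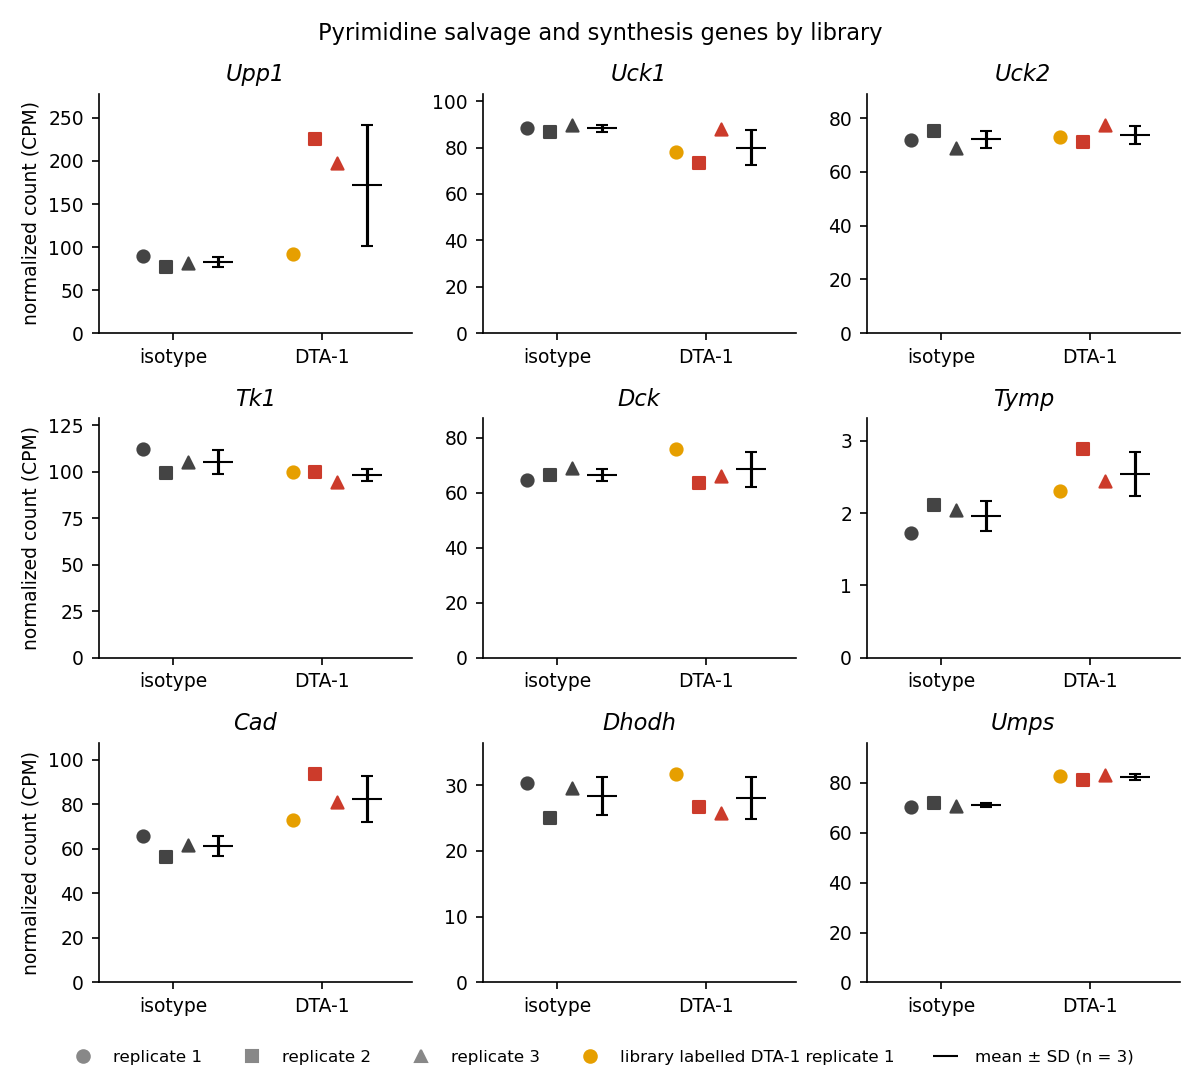
Normalized counts (CPM, y axis from 0) of the 9 members that passed the filter, 1 point per library, with circles, squares and triangles for replicates 1, 2 and 3 and the bar and whiskers for mean ± SD (n = 3). The Upp1 points of DTA-1 replicates 2 and 3, at 225 and 198 CPM, stand far above the other 4 libraries (77.1 to 91.9 CPM), whereas for Umps all 3 DTA-1 points lie together above isotype control.

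The uridine and cytidine kinases did not rise with Upp1. Uck1 (chr2:32255002-32260159, − strand) had 88.4, 86.9 and 89.8 CPM in isotype control and 78.2, 73.4 and 88.2 CPM in DTA-1. Of its DTA-1 libraries 2 lay below isotype control and replicate 3 lay within its range. The mean of Uck1 was 88.4 ± 1.45 CPM in isotype control and 80 ± 7.55 CPM in DTA-1 (SD, n = 3), with a log2 fold change of −0.14 with a standard error of 0.08 (−0.13 without DTA-1 replicate 1). Uck2 (chr1:167222883-167285320, − strand) had 72, 75.3 and 68.9 CPM in isotype control and 72.8, 71 and 77.5 CPM in DTA-1. The 2 groups ran through the same range, and its log2 fold change was 0.03 with an interval of −0.14 to 0.20.

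The deoxynucleoside kinases were also close to level. Tk1 (chr11:117815526-117826092, − strand), the cytosolic thymidine kinase whose expression rises in S phase, had 112, 99.1 and 105 CPM in isotype control and 100, 100 and 94.4 CPM in DTA-1. Its groups overlapped, with means of 105 ± 6.52 and 98.4 ± 3.42 CPM (SD, n = 3) and a log2 fold change of −0.10 (interval −0.26 to 0.06). The span of Tk1 also overlaps opposite-strand genes. Gm20708 had a median of 48.6 counts, and Afmid, which shares 169 bases, had 532, against 3305.6 for Tk1. The overlaps of Uck1, Uck2 and Umps were with short stretches or genes of few counts. Dck (chr5:88764996-88783281, + strand) had 64.4, 66.4 and 68.8 CPM in isotype control and 75.7, 63.6 and 66.1 CPM in DTA-1. The highest Dck value was that of the library labelled DTA-1 replicate 1, and the log2 fold change went from 0.04 with all libraries to −0.04 without it. The standard errors of these Dck values were 0.09 and 0.08.

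In de novo synthesis the gene for the multifunctional first enzyme moved most. Cad (chr5:31054780-31078479, + strand) had 65.7, 56.6 and 61.8 CPM in isotype control and 73.2, 93.7 and 80.9 CPM in DTA-1. All 3 DTA-1 libraries were above isotype control, and DTA-1 replicate 1 was the lowest of them. The mean of Cad was 61.4 ± 4.54 CPM in isotype control and 82.6 ± 10.4 CPM in DTA-1 (SD, n = 3). Its log2 fold change was 0.43 with a standard error of 0.10 (interval 0.20 to 0.65), and without DTA-1 replicate 1 it was 0.51, or 1.42-fold.

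Umps differed by less than Cad but with the least spread of any member. Umps (chr16:33954782-33967038, − strand) had 70.2, 72 and 70.9 CPM in isotype control and 82.9, 81 and 83.2 CPM in DTA-1. Unlike for Upp1, the library labelled DTA-1 replicate 1 lay among the other DTA-1 libraries. The means were 71 ± 0.945 and 82.4 ± 1.19 CPM (SD, n = 3), and the log2 fold change was 0.21 with a standard error of 0.07, both with and without that library. Dhodh (chr8:109591343-109608673, − strand) had 30.4, 25 and 29.5 CPM in isotype control and 31.7, 26.7 and 25.7 CPM in DTA-1. The Dhodh groups overlapped, and the log2 fold change was −0.01 with all libraries and −0.11 without DTA-1 replicate 1, each with a standard error of 0.12.

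Of the remaining members, Tymp was expressed at a low level and Cda was barely detected. Tymp (chr15:89371931-89377039, − strand) had 61.2, 74.1 and 72.2 expected counts in isotype control, against 71.1, 89.6 and 78.3 in DTA-1. In CPM these were 1.72, 2.11 and 2.04 against 2.3, 2.88 and 2.45, so the groups did not overlap after scaling, with a log2 fold change of 0.38 and a standard error of 0.29. The Tymp value is uncertain, because its annotated span shares 1888 bases on the same strand with Sco2, a mitochondrial copper chaperone gene, and 896 bases on the opposite strand with Ncaph2, a condensin subunit gene with a median of 9455.3 counts. Tymp and Sco2 summed had 8, 6.9 and 5.73 CPM in isotype control and 6.28, 9.35 and 6.9 CPM in DTA-1, and these groups overlapped. Cda (chr4:138338424-138367992, − strand) had 1 count in DTA-1 replicate 2 and 0 in the other 5 libraries, which was not detectable above the limit that a count of 0 allows, so no fold change is given.

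Of the 9 members tested, 4 (Upp1, Cad, Umps and Tymp) had all DTA-1 libraries above all isotype control libraries and 0 had them all below, where 5.26% of all 14361 genes were higher and 6.03% lower in that sense. The members were proposed from this contrast, so nothing is read from that count. In edgeR's quasi-likelihood fit of all 6 libraries, 0 genes of the table (0%) had a Benjamini-Hochberg adjusted p under 0.05 together with a change of at least 1.5-fold. By unadjusted p under 0.05 with the same fold limit there were 337 (2.35%), and DESeq2 called 25. Without DTA-1 replicate 1 edgeR called 111 of 14911 genes (0.744%), 87 higher (0.583%) and 24 lower (0.161%), and no call is read for the members, which were chosen on this contrast. Without that library Upp1, Cad, Umps and Tymp necessarily kept groups that did not overlap, since removing a library cannot create an overlap. Of all genes, 31.2% then had such groups, 15.4% higher and 15.9% lower. The median log2 fold change was 0.04 over the 9 members and −0.01 over all genes tested. In bulk RNA, a different share of cells that express a gene and a different amount of its RNA per cell cannot be told apart.

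**Figure D2:**
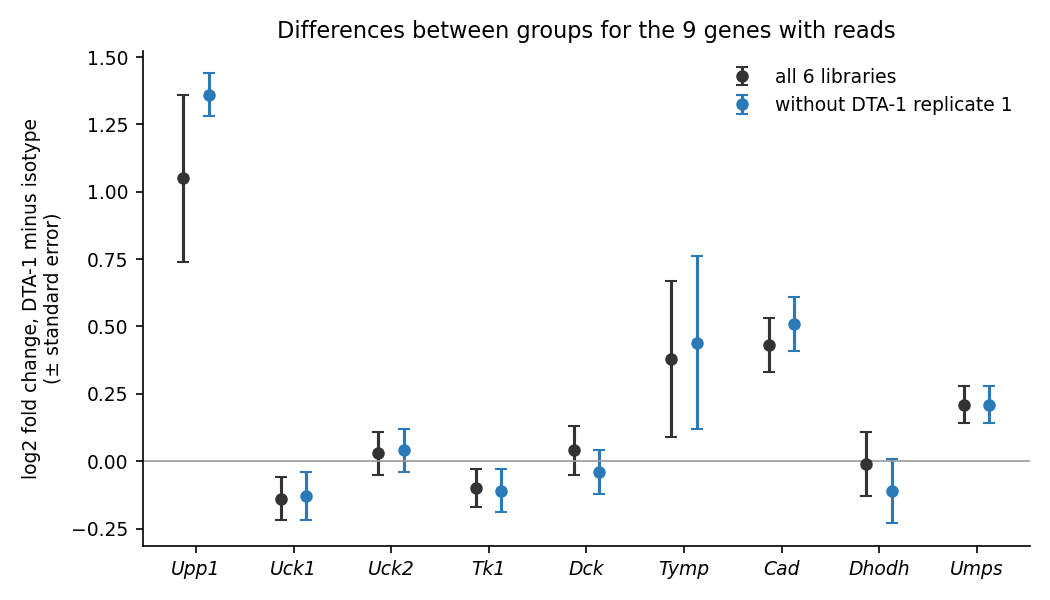
Log2 fold change (DTA-1 minus isotype control, y axis) ± standard error for the 9 members tested, with all 6 libraries in black and without DTA-1 replicate 1 in blue. For Upp1 the value goes from 1.05 to 1.36 and its standard error from 0.31 to 0.08, whereas for Umps both stay at 0.21 and 0.07. The errors in blue do not allow for that library having been left out after its counts were seen.

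Levels were compared between genes per kilobase of the union of exons. In isotype control Tk1 was highest at 73.1 ± 4.53 CPM per kb, followed by Upp1 at 54.4 ± 4.02 and Uck1 at 37.5 ± 0.614 (SD, n = 3). Dck (21.6), Umps (20.4), Uck2 (14.7), Dhodh (13.6) and Cad (8.4) came next in CPM per kb, then Tymp (0.961) and Cda (0). Of the neighbours in this order, Uck2 and Dhodh overlapped in their isotype control values, and all other neighbours were separate.

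In DTA-1 Upp1 came first, at 113 ± 46.3 CPM per kb, and Tk1 second, at 68.3 ± 2.38 (SD, n = 3). Their ranges overlapped, because Upp1 had 60.5 CPM per kb in DTA-1 replicate 1 against 148 and 131 in replicates 2 and 3. Umps (23.6 CPM per kb) moved ahead of Dck (22.2), but the ranges of that pair overlapped in DTA-1, as did those of Uck2 (15) and Dhodh (13.4), and of Dhodh and Cad (11.3).

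Within each library, the counts of genes whose enzymes act on uridine were set against each other. The ratio of Upp1 counts to Uck1 and Uck2 counts summed was 0.556, 0.475 and 0.515 in isotype control against 0.608, 1.56 and 1.2 in DTA-1. Upp1 counts were thus fewer than those of the uridine kinases in 4 libraries and more in DTA-1 replicates 2 and 3. Upp1 made up 15%, 13.8% and 14.1% of the counts of all 10 members in isotype control, against 15.1%, 30.5% and 27.7% in DTA-1. Being ratios of counts within a library, these do not depend on the scaling between libraries.

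The de novo genes Cad, Dhodh and Umps summed to 166, 154 and 162 CPM in isotype control and 188, 201 and 190 CPM in DTA-1. All 3 DTA-1 libraries were higher, replicate 1 included, with means of 161 ± 6.42 and 193 ± 7.33 CPM (SD, n = 3). The 4 salvage kinase genes summed to 337, 328 and 332 CPM in isotype control and 327, 309 and 326 CPM in DTA-1. Here the DTA-1 libraries were all lower, by a margin as small as that between 328 and 327 CPM. Within de novo synthesis, Cad counts per Dhodh count were 2.16, 2.26 and 2.09 in isotype control against 2.31, 3.51 and 3.15 in DTA-1. Umps counts per Dhodh count were 2.31, 2.88 and 2.4 in isotype control against 2.61, 3.03 and 3.24 in DTA-1, and these groups overlapped.

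**Figure D3:**
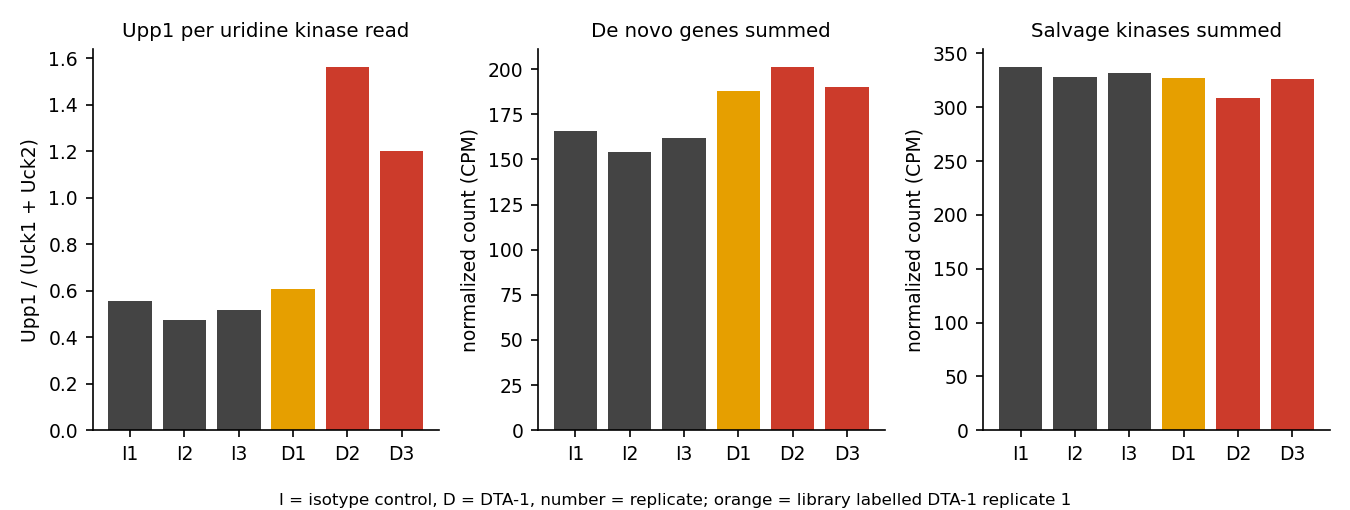
Bars from 0, 1 per library, for the ratio of Upp1 counts to Uck1 plus Uck2 counts (left), the summed normalized counts of Cad, Dhodh and Umps (middle) and of Uck1, Uck2, Tk1 and Dck (right), in CPM. The left panel separates DTA-1 replicates 2 and 3 (1.56 and 1.2) from the other 4 libraries (0.475 to 0.608), the middle panel separates all 3 DTA-1 libraries from isotype control, and the right panel is nearly flat.

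The rest of nucleotide metabolism was tested in the same fit, with 56 other genes listed and 52 tested. None was called by edgeR's adjusted p with the 1.5-fold limit, with all libraries, without any one library, or by DESeq2. At unadjusted p under 0.05 with that limit there were 2, Cmpk2 and Xdh, both lower in DTA-1. Of the 52, 29 had a positive log2 fold change and 23 a negative one, with a median of 0.01 (all genes −0.01). Of the 52, 2 (3.85%), Pgm2 and Mthfd1l, had all DTA-1 libraries above isotype control, and 0 had them all below, against 5.26% and 6.03% of all genes.

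Among the 9 other genes of pyrimidine salvage and uptake, 8 were tested and their median log2 fold change was 0.05. Pgm2, a phosphoglucomutase gene, had 92.2, 86 and 76.5 CPM in isotype control and 95.2, 111 and 106 CPM in DTA-1. The DTA-1 libraries were above isotype control, with replicate 1 the closest, and the log2 fold change of Pgm2 was 0.29 with a standard error of 0.09 (edgeR adjusted p = 0.627, and 0.102 to 0.999 over the alternatives). The symbol needs care: the table uses the older mouse names, and the gene it lists as Pgm2, on chromosome 4, is Pgm1 in RefSeq, whose product interconverts glucose phosphates. The gene that RefSeq names Pgm2, on chromosome 5, whose product also acts on the ribose-1-phosphate released by uridine phosphorylase, is listed as Pgm1. The counts and medians given for the nucleotide lists include the table's Pgm2 and leave out the table's Pgm1. That gene, looked up after the values were seen, had 43.6, 45 and 46.8 CPM in isotype control and 50.3, 44.2 and 47.5 CPM in DTA-1, so its groups overlapped, and its log2 fold change was 0.07 (adjusted p = 0.902 by edgeR). Upp2, the second uridine phosphorylase gene, had 9 to 28 counts per library and a log2 fold change of 0.61 with a standard error of 0.61 (edgeR adjusted p = 0.864). That value rested on DTA-1 replicate 3, without which it was −0.04. Slc28a2, a concentrative nucleoside transporter gene, had 0 to 43 counts and a log2 fold change of −0.76 with a standard error of 1.05 (edgeR adjusted p = 0.913), which turned to 0.53 without isotype control replicate 3. The transporter Slc28a3 had no counts, and Slc29a1, an equilibrative nucleoside transporter gene, had 130 ± 5.4 CPM in isotype control and 132 ± 7.48 CPM in DTA-1 (SD, n = 3).

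The 13 genes of CTP synthesis, nucleotide kinases and deoxynucleotide synthesis had a median log2 fold change of −0.03. Rrm2, the ribonucleotide reductase subunit gene, had 650 ± 8 CPM in isotype control and 717 ± 56 CPM in DTA-1 (SD, n = 3), with a log2 fold change of 0.14 with a standard error of 0.07 (edgeR adjusted p = 0.702). Cmpk2, an interferon-inducible mitochondrial UMP and CMP kinase gene, had 5.85, 7.98 and 4.11 CPM in isotype control and 1.46, 4.45 and 2.7 CPM in DTA-1. The groups of Cmpk2 overlapped, and its log2 fold change of −1.06 had a standard error of 0.38 (edgeR adjusted p = 0.632). The other genes named from this list were Rrm2b (−0.20) and Nme2 (0.18), the latter counted beside the readthrough gene Gm20390 that spans it, so its value is uncertain.

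Of 8 genes of breakdown and nucleotidases 5 were tested, with a median log2 fold change of −0.08. Samhd1, which encodes a dNTP hydrolase, had 115, 126 and 129 CPM in isotype control and 116, 98.9 and 88.7 CPM in DTA-1. DTA-1 replicate 1 lay within isotype control and replicates 2 and 3 lay below it, and the log2 fold change was −0.29 with a standard error of 0.10 (edgeR adjusted p = 0.627). Without DTA-1 replicate 1 the log2 fold change of Samhd1 was −0.40 with an edgeR adjusted p of 0.0481, short of the 1.5-fold limit. Nt5c3 and Nt5c3b, pyrimidine nucleotidase genes, both had −0.08. Dpyd, the first enzyme of uracil breakdown, had no counts, and Dpys had 1 to 11 counts per library.

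The 20 purine genes had a median log2 fold change of 0.02 and the 6 folate and one-carbon genes one of 0.03. Xdh, the xanthine dehydrogenase gene, had 1.72, 4.36 and 4.45 CPM in isotype control and 2.46, 0.801 and 1.19 CPM in DTA-1, with a log2 fold change of −1.24 with a standard error of 0.47 (edgeR adjusted p = 0.653). Its DTA-1 replicate 1 lay within isotype control, and without that library the log2 fold change was −1.81 (edgeR adjusted p = 0.115). Gda, the guanine deaminase gene, had 0.56 (0.09 without DTA-1 replicate 2 and 0.93 without DTA-1 replicate 1), and Adk, the adenosine kinase gene, had −0.27. Mthfd1l, a mitochondrial one-carbon enzyme gene, had 57.7, 60.9 and 62.6 CPM in isotype control and 67.8, 68.7 and 72.5 CPM in DTA-1. As for Umps, all 3 DTA-1 libraries lay together above isotype control, with a log2 fold change of 0.21 and a standard error of 0.08 (edgeR adjusted p = 0.653, and 0.256 to 0.999 over the alternatives). Shmt1 and Mthfd2 had 0.16 and 0.05.

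**Figure D4:**
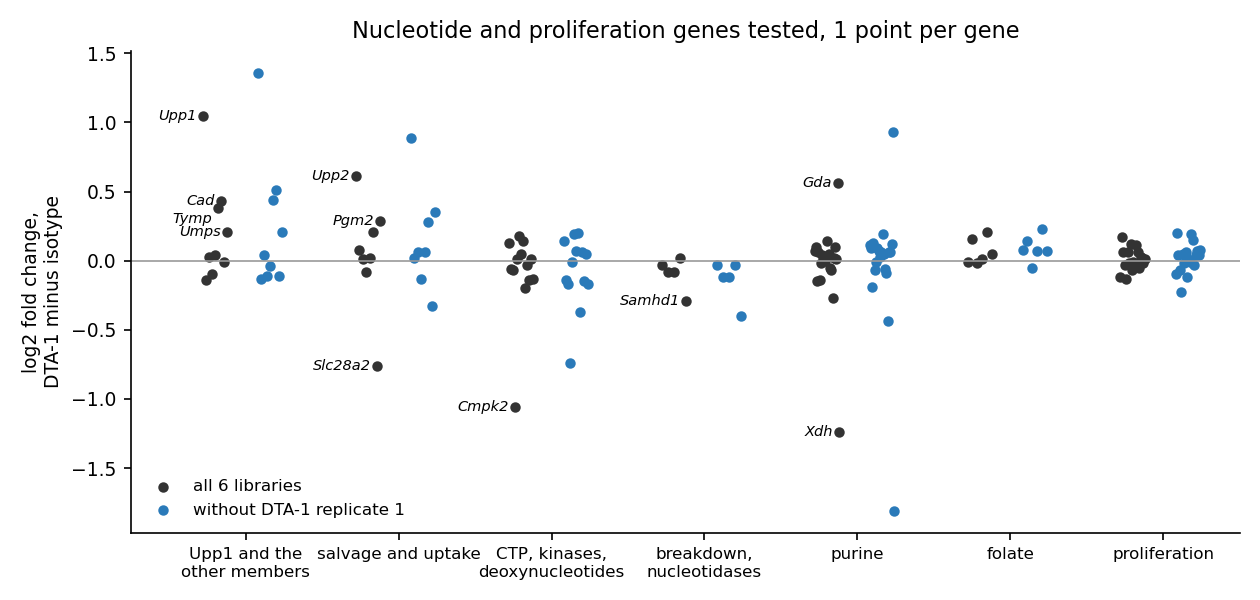
Log2 fold change (DTA-1 minus isotype control, y axis) of each gene tested, 1 point per gene, for the members, 5 lists of other nucleotide genes and the proliferation genes, with all 6 libraries in black and without DTA-1 replicate 1 in blue. Among the black points Upp1 is the highest at 1.05, Xdh and Cmpk2 are the lowest at −1.24 and −1.06, and 17 of the 18 proliferation genes lie within 1.1-fold of no difference.

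Genes of proliferation, with which nucleotide synthesis is often linked, had summed levels that overlapped between the groups. All 18 listed were tested and 0 were called, 17 were within 1.1-fold, and the median log2 fold change was −0.00. Those furthest from 0 were Top2a (0.17), Ccnb2 (−0.13) and Mki67 (−0.12).

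The libraries carried the ILC2 markers: all 12 listed were tested, with Gata3 between 1520 and 1720 CPM. The cytokine gene Il5 (0.60) and Areg (0.53), which encodes amphiregulin, had positive log2 fold changes, and the costimulatory receptor gene Icos a negative one (−0.46). With all 6 libraries each had an edgeR adjusted p of 0.627 and was not called. All 3 were called without DTA-1 replicate 1, which was left out after its counts were seen. Of the 12 markers, Il5 (8.33%) was higher in all DTA-1 libraries and Gata3 (8.33%) lower, against 5.26% and 6.03% of all genes. Of the markers of other cells, the summed level was 40.9 to 54.1 CPM in isotype control and 47.6 to 51.3 CPM in DTA-1 for 6 T cell genes (mostly Cd3g, with Cd8a at 0). The B cell receptor genes Cd79b and Cd79a had 16.4 to 17.3 and 0.0283 to 0.254 CPM in isotype control, and 16.8 to 17.8 and 0.291 to 0.502 CPM in DTA-1, where Cd79a was higher in all 3 libraries at 1 to 16 counts and was not tested. The summed level was 6.44 to 12.2 and 8.67 to 11.9 CPM for 7 macrophage genes, at most 1.05 CPM for 5 neutrophil genes (S100a8 and S100a9 at 0), at most 0.032 CPM for 4 adipocyte genes and at most 0.125 CPM for 4 mesothelial genes. Markers lower in DTA-1 were the fibroblast collagen gene Col1a1 (1.6 to 1.93 CPM against 0 to 0.288) and Pecam1 (18.4 to 24.4 CPM against 10.4 to 18.3), with log2 fold changes of −3.73 and −0.72 (edgeR adjusted p = 0.491 and 0.627). Both were called without DTA-1 replicate 1 (edgeR adjusted p = 0.0325 for Col1a1 and 0.0132 for Pecam1), and Col1a1 also by DESeq2. The summed level of 7 fibroblast genes was 1.8 to 7.71 against 0.32 to 3.98 CPM, and of 4 endothelial genes, with Cdh5 at 0, it was 18.4 to 24.4 against 10.6 to 18.3 CPM. The other fibroblast genes overlapped between the groups. Means in DTA-1 were lower for Col1a2, Col3a1, Dcn and Lum, and higher for Pdgfrb and Fap. Kdr and Tek had 0 counts in isotype control, and 5 and 19 counts in 1 DTA-1 library each. The endothelial sum was thus almost all Pecam1. The part of other cells in the values of Upp1 was not tested.

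Across the 6 libraries, the genes most like Upp1 were ranked by Pearson's r on log2 CPM among 4440 genes with a mean of at least 50 normalized counts. The highest r were those of Tpi1 (0.9972), Mboat7 (0.9968), Gapdh (0.9955), Ier2 (0.9952) and Ptgir (0.9947), with Spearman's rho between 0.829 and 1. Tpi1 and Gapdh encode glycolytic enzymes, Ier2 is an immediate early gene and Ptgir encodes the prostacyclin receptor. The lowest r were those of Itgb7 (−0.9988), Mns1 (−0.9982), Oxr1 (−0.9926), Pcnp (−0.9924) and Icos (−0.9919), with rho between −1 and −0.886. Itgb7 encodes an integrin subunit used in homing to the gut.

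The genes with the highest r moved with Upp1 across libraries and those with the lowest r moved against it, all by smaller log2 fold changes. Ptgir had 274, 269 and 273 CPM in isotype control and 279, 392 and 390 CPM in DTA-1, with a log2 fold change of 0.38. Icos had 156, 173 and 157 CPM in isotype control and 157, 99 and 98.4 CPM in DTA-1. In both, as in Upp1, DTA-1 replicate 1 lay beside isotype control, and replicates 2 and 3 differed. In these genes the libraries thus fell into 2 clusters, so their r with Upp1 describes that split. Of the genes compared, 152 had r over 0.95. All genes of a library share its depth and scaling. Among the members, r with Upp1 was 0.924 for Cad, 0.803 for Tymp and 0.705 for Umps. It was 0.256 for Uck2 and between −0.501 and −0.43 for Dck, Dhodh, Uck1 and Tk1.

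**Figure D5:**
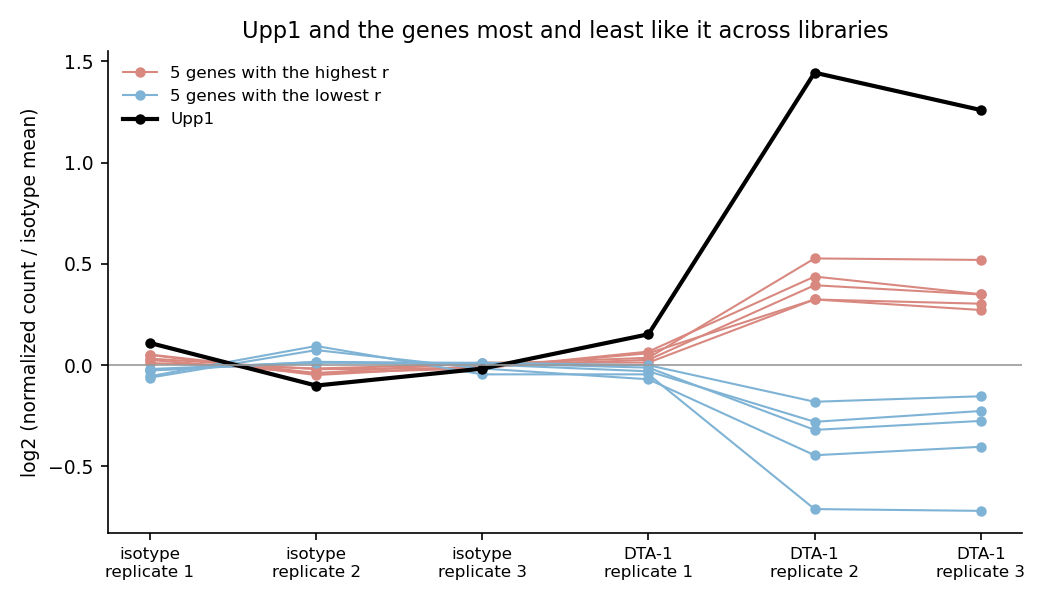
Log2 ratio of each gene's normalized count to its isotype control mean (y axis) in the 6 libraries (x axis), for Upp1 (black), the 5 genes with the highest r with it (red) and the 5 with the lowest (blue); lines join the values of 1 gene and imply no order of the libraries. DTA-1 replicate 1 lies near 0 for all 11 genes, and Upp1 departs furthest from 0 in DTA-1 replicates 2 and 3.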

How the data were processed

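RNA from 3 isotype control and 3 DTA-1 libraries of sorted ILC2s was sequenced by the authors from 10 ng of input RNA each. The submitters' processing notes name bcl2fastq 2.17.1.14, STAR 2.5.3a, Partek and the build mm10, and the annotation release and the use of strand are not given in the sources used here. The authors deposited expected counts, which are read numbers per gene as estimated by the quantifier and not normalized, and 79.5% of the values were whole. Reads shared by overlapping genes may be split by such an estimate. The table had 53278 genes, and 0 value columns were left out. Groups came from the sample labels.

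Expected counts were rounded. edgeR 4.0.16 in R 4.3.3 (filterByExpr by group, TMM, robust quasi-likelihood F test, Benjamini-Hochberg adjustment) was fitted to 14361 genes with no covariate, and the common dispersion was 0.0256. A call was an adjusted p under 0.05 and at least 1.5-fold. Mean ± SD values are of CPM after TMM. Intervals are at 95%. With 3 libraries against 3, an exact permutation test cannot go under 0.05 and none was run. On simulated data for this comparison, over 14361 genes, 192 of 200 genes changed 2-fold were recovered (96%), with 10 false calls. The simulation gave every gene the common dispersion and changed no gene of low count. It held no library that stood apart from its group, as DTA-1 replicate 1 did. It therefore checks the code and does not give the power of the real comparison. Exon lengths came from GENCODE mouse release M21, with which 47669 of 49618 symbols in common agreed in both ends. Promoters came from RefSeq (GRCm38.p6).

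The members and the gene lists were chosen with earlier results of these data known. Named were all members; of the nucleotide and proliferation lists, each gene called in any fit, with groups that did not overlap, or among the 3 with the largest change; of the cell type lists, those called or not overlapping that passed the filter and the main markers; and the 5 genes with the highest and the lowest r with Upp1. Rrm2, Pgm1, Slc29a1, Slc28a3, Dpyd, Dpys, Cd79a and Cd79b were named after their values were seen. Alternatives were DESeq2 1.42.0 (size factors, Wald test), total counts, limma 3.58.1 (limma-trend on log2 CPM, prior count of 2), no filter, a filter of 10 counts in every library, the replicate block, each library left out, an unadjusted p, and no fold limit. The summed level of 1 cell type list is not reported here.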

Additional observations from a re-analysis of the deposited data

How the results depend on the processing

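With all 6 libraries edgeR called 0 genes, and this was also 0 with DESeq2's size factors, total counts, limma-trend, the filter of 10 counts in every library and no fold limit. DESeq2's Wald test called 25 genes (13 higher, 12 lower), the fit with no filter called 2, and an unadjusted p with the 1.5-fold limit gave 337. Leaving out 1 library gave 0 to 111 genes, the 111 (87 higher, 24 lower) coming without DTA-1 replicate 1. The other nucleotide genes called were 0 in every setting except the unadjusted p, which gave 2. For these changes the cause was not tested.

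No pairing by replicate number was seen in the deviations from the group means, taken over all genes with equal weight. Those of same-numbered libraries correlated at −0.0069, −0.00285 and 0.0152, and those of differently numbered libraries at −0.0145 to 0.0161. Whether libraries shared a mouse, culture or batch was not tested. With the number as a replicate block 1 gene was called in the whole table, and 0 of the other nucleotide genes were called.

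Of 117 alternative values of the members' log2 fold changes, 116 stayed within 1 SD of the replicates, and Umps moved to 0.18 with total counts. That SD came from the same 6 libraries, so values with 1 library left out could hardly exceed it, and no stability is read from this count. On the log2 scale the SD was 0.50 for Upp1, whose values ran from 0.82 to 1.36, and 0.02 for Umps. Signs changed for members near 0: Dhodh kept its sign in 9 of 13 alternatives, Uck2 in 11 and Dck in 12. The median of all genes lay between −0.04 and −0.00 in every setting. At this depth Cda could not be measured, and Tymp rested on under 90 counts per library.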
